A study of Mus musculus with 12 samples.

Results

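Kctd14, Nr0b1, Foxl2, Cyp19a1, Gata4, Gata6 and Wt1 are 7 of the 23150 genes measured by bulk RNA-seq in 12 libraries of mouse ovarian cells. They were taken by gene name, Foxl2, Cyp19a1, Gata4, Gata6 and Wt1 as genes that mark or specify granulosa cells (GCs), whereas Kctd14 and Nr0b1 were chosen by measured values of these libraries, Kctd14 for its difference between Sema3E and IgG in GCs and both for their difference between tissues with IgG. All mice were WT immature females superovulated with pregnant mare serum gonadotropin (PMSG) and then human chorionic gonadotropin (hCG), given in place of the ovulatory surge of luteinizing hormone (LH). Before hCG, one ovary received 2 µg of recombinant mouse Sema3E, a secreted semaphorin, in 10 µL of PBS with BSA, and the contralateral ovary received 2 µg of mouse IgG in the same volume and buffer. At 8 h post-hCG, GCs were released by needle puncture and the residual ovary was kept as ovarian stromal tissue (OST). There were 3 libraries each of IgG-injected GCs, Sema3E-injected GCs, IgG-injected OST and Sema3E-injected OST, each replicate coming from 1 ovary.

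Granulosa cells surround and nourish the oocyte, convert androgen to oestrogen and, after the LH surge, luteinize to form the corpus luteum. Their identity is held by transcription factors, chief among them the forkhead factor FOXL2, together with the zinc finger factors GATA4, GATA6 and WT1, which the somatic cells of the gonad carry from fetal life onward. WT1 is highest in granulosa cells of small follicles and declines as follicles mature, and Cyp19a1, the aromatase gene, is switched on by follicle stimulating hormone and shut off after the LH surge.

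Levels are in TPM, transcript abundance corrected for gene length and scaled to the same total in each library, so that levels of different genes in a library can be set side by side. How deeply each library was sequenced cannot be read from TPM and is unknown here. Differences are given as log2 of (TPM + 1) with the standard error (SE) of a limma fit, and a gene passed the test when its p-value, adjusted over all genes of that fit, was under 0.05. In bulk tissue, fewer cells of a type and less RNA per cell cannot be told apart.

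Both tissues carried granulosa mRNA. The summed level of 8 granulosa markers was 5934 to 12954 TPM in GCs and 5778 to 13619 TPM in OST. Most of it was 1 marker, Inha (5027 to 11239 TPM in GCs and 4465 to 8418 TPM in OST), so the sums mainly compare that gene. None of the 8 was at 0 in either tissue, so the OST libraries held granulosa mRNA as well as that of stroma. Their 6 stroma markers summed to 885 to 1224 TPM against 24.9 to 77.7 TPM in GCs. Globin mRNA made up 4.54% to 19.6% of the TPM in GCs and 0.261% to 0.637% in OST, which lowers every other gene's TPM in GCs in proportion. For this reason the tissue comparisons were also made without globin and mitochondrial genes.

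A pair of IgG libraries stood apart. OST IgG replicate 3 had the lowest level of the 12 libraries for 20 of 20 genes that follicles induce on the way to ovulation and luteinization, with a summed level of 967 TPM where the other OST libraries had 7110 to 9799 TPM, and with 12.1 TPM of Star, the cholesterol transporter gene, where the others had 1173 to 1801 TPM. It also had the highest level of the 12 for 8 of 8 oocyte markers (sum 1115 TPM). On these genes the library goes against its label of 8 h post-hCG. GC IgG replicate 1 had the most leukocyte mRNA (1830 TPM over 6 markers, where the other 5 GC libraries had 123 to 426 TPM) and the most globin mRNA. The 2 libraries are both controls, so the values of the 7 genes and the counts of the follicle and ovulation lists are given below with and without them, and the comparison of OST with GCs among Sema3E libraries uses neither.

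Each gene's position was taken from GENCODE on the GRCm38 assembly. Kctd14 lies at chr7:97451323-97459557, Nr0b1 at chrX:86191764-86195947, Foxl2 at chr9:98955288-98958543 and Wt1 at chr2:105126529-105173616, all on the plus strand. Cyp19a1 (chr9:54165937-54268110) and Gata4 (chr14:63198922-63271692) lie on the minus strand. All 7 are protein coding, and no transcript of another gene matched any of theirs at 95% identity over 80% of the length.

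Promoter sequences (RefSeq, GRCm38.p6) were found for 3 of the 7 genes. The 250 bases before the Nr0b1 start and before the outermost of 3 Cyp19a1 starts are shown, because the tissue differences of Nr0b1 and Cyp19a1 had opposite signs and both windows hold a match to the same nuclear receptor letters. The windows of the other Cyp19a1 starts held no such match on either strand and are not shown, so the shared match is a result of how the window was picked. They come from chrX:86191525-86191774 on the plus strand and chr9:54268165-54268414 on the minus strand, written 5′ to 3′. Capitals mark AGGTCA, the core letters bound by the steroidogenic receptors NR5A1 and NR5A2, on either strand (TGACCT in Cyp19a1), and the TATA box letters TATAAA in Nr0b1.
Nr0b1: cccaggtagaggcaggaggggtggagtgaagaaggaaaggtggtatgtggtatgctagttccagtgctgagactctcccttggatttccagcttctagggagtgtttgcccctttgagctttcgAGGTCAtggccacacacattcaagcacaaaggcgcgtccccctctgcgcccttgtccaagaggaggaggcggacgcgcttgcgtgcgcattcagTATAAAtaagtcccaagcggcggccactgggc
Cyp19a1: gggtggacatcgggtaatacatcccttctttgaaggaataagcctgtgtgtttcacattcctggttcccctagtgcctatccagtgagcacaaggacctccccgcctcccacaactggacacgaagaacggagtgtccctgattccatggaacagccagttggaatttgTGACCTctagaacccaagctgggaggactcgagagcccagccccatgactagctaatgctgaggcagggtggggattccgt
The match lies at bases −126 to −121 of Nr0b1 and at −81 to −76 of this Cyp19a1 start, counted back from −1 at the base before the start, and the Nr0b1 TATAAA lies at −32 to −27. Both Cyp19a1 windows that are not shown also held TATAAA on either strand, the match nearest to a start lying at −29 to −24. These letters are common, with AGGTCA on either strand in 14.0% of 32851 mouse promoter windows of the same length and TATAAA in 12.4%. Neither window held AGATAA, letters that GATA factors bind, nor TAAACA of the forkhead factors, nor TGACG of cAMP response elements, nor GGGGGCG of WT1 and EGR factors, on either strand. Of the 32851 windows, 3281 held AGATAA, 3952 TAAACA, 5836 TGACG and 4873 GGGGGCG, and in the printed windows no match overlapped another. A match is a description of the letters and not a site in use, and which Cyp19a1 start these libraries used was not measured.

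Foxl2 was the most abundant of the 7 in every library and Cyp19a1 was the least. By rank among all genes, Foxl2 stood between place 161 and place 325, and Cyp19a1 between place 10888 and place 17585. Over the 12 libraries the level of Kctd14 spanned a 38.4-fold range, that of Wt1 14.5-fold, that of Nr0b1 11.6-fold and that of Cyp19a1 8.29-fold, while Foxl2, Gata4 and Gata6 spanned 3.11-, 2.25- and 2.23-fold. OST IgG replicate 3 had the highest level of Kctd14, Nr0b1, Foxl2 and Wt1 and the lowest of Cyp19a1.

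**Figure D1:**
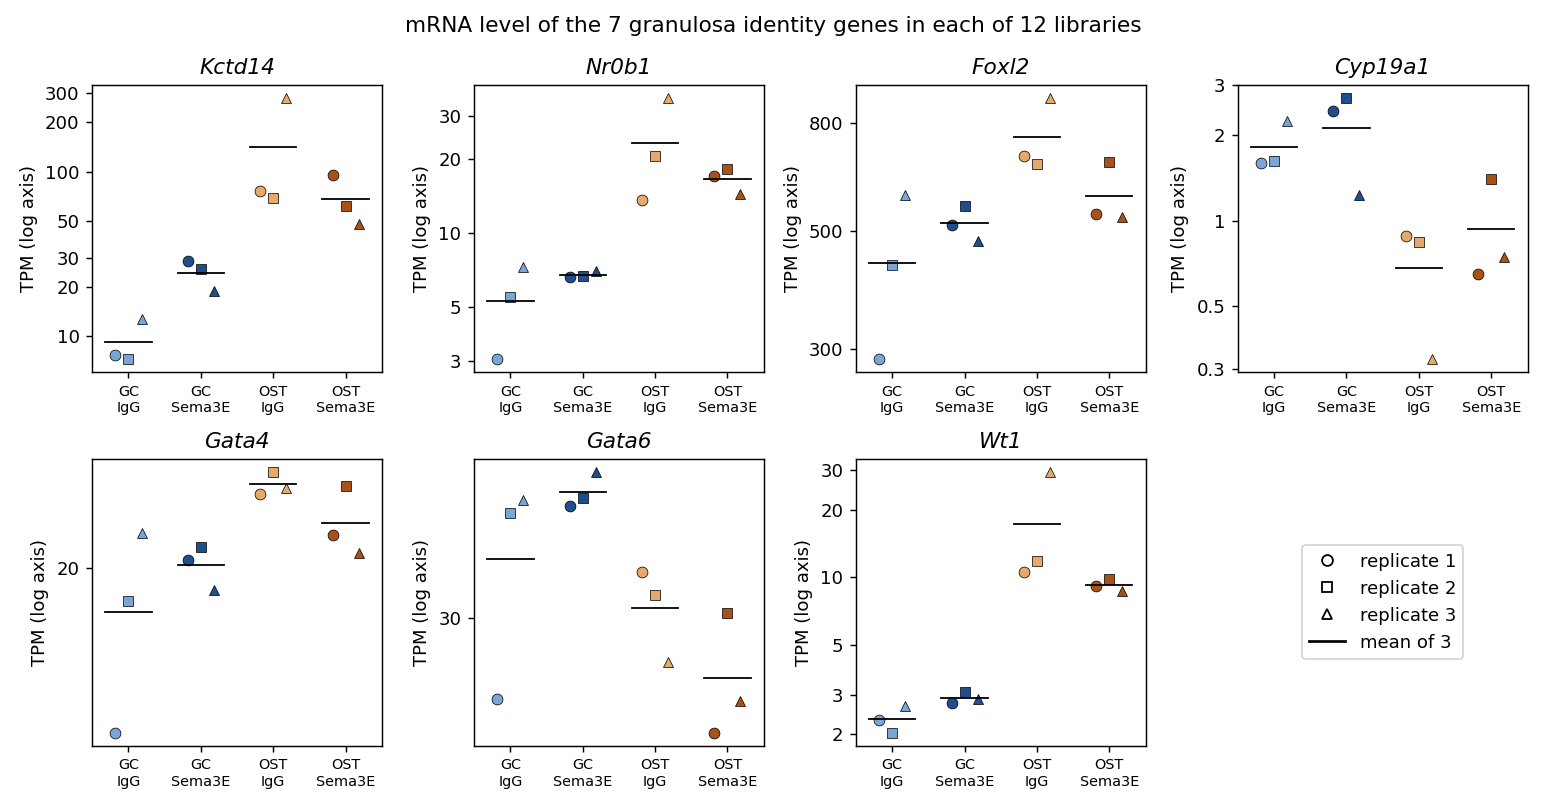
Level of each of the 7 genes in each library, in TPM on a log axis that differs between panels, with 3 libraries per group (marker shape gives the replicate) and a bar at the mean of 3. Kctd14, Nr0b1 and Wt1 sit higher in all 6 OST libraries than in all 6 GC libraries, Gata6 sits lower in Sema3E OST than in Sema3E GCs, and OST IgG replicate 3 is the top point for Kctd14, Nr0b1, Foxl2 and Wt1.

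FOXL2 maintains the granulosa fate and keeps the testis programme silent in the adult ovary. In GCs, Foxl2 was at 287, 433 and 586 TPM in IgG replicates 1, 2 and 3 and at 514, 558 and 480 TPM in Sema3E replicates 1, 2 and 3. In OST it was at 694, 669 and 893 TPM with IgG and at 540, 676 and 531 TPM with Sema3E. Every OST library was above GC IgG replicate 1, and the OST levels lay within or above the range of the GC libraries. Ordered by mean, the groups ran from GC IgG (435 ± 150 TPM, SD, n = 3) through GC Sema3E (517 ± 39.2 TPM) and OST Sema3E (582 ± 81.4 TPM) to OST IgG (752 ± 123 TPM), and each group overlapped its neighbour.

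GATA4 and GATA6 act together in granulosa and theca cells and are needed for follicle assembly and steroidogenic gene expression. Gata4 was at 11.98, 18.1 and 22.3 TPM in IgG GCs and at 20.5, 21.4 and 18.7 TPM in Sema3E GCs. The OST levels were 25.2, 27.0 and 25.7 TPM with IgG and 22.2, 25.9 and 20.9 TPM with Sema3E. The lowest level was that of GC IgG replicate 1. The order of group means (17.5 ± 5.19, 20.2 ± 1.37, 23.0 ± 2.56 and 26.0 ± 0.928 TPM, SD, n = 3 each) was the same as that of Foxl2, again with every neighbour overlapping. These means are of unscaled TPM, and after scaling by median ratios Gata4 was no longer higher in IgG OST than in Sema3E OST.

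Gata6 had a different order. In GCs it was at 23.3, 41.4 and 43.1 TPM with IgG and at 42.3, 43.3 and 47.0 TPM with Sema3E. In OST it was at 34.5, 32.1 and 26.2 TPM with IgG and at 21.0, 30.4 and 23.2 TPM with Sema3E. The means ran from OST Sema3E (24.9 ± 4.91 TPM, SD, n = 3) and OST IgG (30.9 ± 4.27 TPM) to GC IgG (36.0 ± 10.96 TPM) and GC Sema3E (44.2 ± 2.46 TPM). Neighbours overlapped at every step but all 3 Sema3E GC libraries were above all 6 OST libraries.

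WT1 is a regulator of gonad formation and of the early follicle. In GCs, Wt1 was at 2.31, 2.03 and 2.68 TPM with IgG and at 2.76, 3.08 and 2.86 TPM with Sema3E. In OST the gene was at 10.6, 11.8 and 29.5 TPM with IgG and at 9.14, 9.79 and 8.71 TPM with Sema3E. No GC library reached the lowest OST library, and OST IgG replicate 3 was the highest library. The order was GC IgG (2.34 ± 0.324 TPM, SD, n = 3), GC Sema3E (2.90 ± 0.165 TPM), OST Sema3E (9.21 ± 0.543 TPM) and OST IgG (17.3 ± 10.6 TPM). On these unscaled TPM no group overlapped its neighbour.

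NR0B1 (DAX1) is an orphan nuclear receptor that represses NR5A1-driven steroidogenic transcription. Nr0b1 was at 3.07, 5.47 and 7.29 TPM in IgG GCs and at 6.63, 6.66 and 7.01 TPM in Sema3E GCs. Its OST levels were 13.6, 20.6 and 35.5 TPM with IgG and 17.1, 18.3 and 14.4 TPM with Sema3E. The 2 tissues were separate, and within each tissue the Sema3E libraries lay inside the range of the IgG libraries. Group means were 5.28 ± 2.12, 6.77 ± 0.213, 16.6 ± 2.00 and 23.3 ± 11.2 TPM (SD, n = 3 each) in GC IgG, GC Sema3E, OST Sema3E and OST IgG.

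Kctd14 encodes a protein of the potassium channel tetramerization domain family. It was at 7.77, 7.30 and 12.8 TPM in IgG GCs and at 28.6, 25.7 and 18.8 TPM in Sema3E GCs. Levels in OST were 76.1, 69.6 and 280 TPM with IgG and 95.4, 62.1 and 47.9 TPM with Sema3E. Kctd14 was the gene of the 7 in which the GC groups were farthest apart, with every Sema3E library above every IgG library, whereas in OST the groups overlapped. Its means ran from GC IgG (9.29 ± 3.06 TPM, SD, n = 3) through GC Sema3E (24.4 ± 5.02 TPM) and OST Sema3E (68.5 ± 24.4 TPM) to OST IgG (142 ± 120 TPM), and the last 2 overlapped.

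Cyp19a1 encodes aromatase, which makes oestrogen from androgen. It was at 1.59, 1.62 and 2.24 TPM in IgG GCs and at 2.43, 2.70 and 1.23 TPM in Sema3E GCs. In OST it was at 0.881, 0.841 and 0.326 TPM with IgG and at 0.649, 1.40 and 0.744 TPM with Sema3E. All were low beside Foxl2, and in OST the gene passed the filter on low values (over 1 TPM in at least 1 library of the fit) through 1 library, OST Sema3E replicate 2. Means were 0.683 ± 0.309 TPM in OST IgG, 0.932 ± 0.410 TPM in OST Sema3E, 1.82 ± 0.365 TPM in GC IgG and 2.12 ± 0.782 TPM in GC Sema3E (SD, n = 3 each).

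The first tested comparison asked how OST and GCs of Sema3E-injected ovaries differed. Wt1 and Nr0b1 had more mRNA in OST and Gata6 had less, while Foxl2 and Gata4 did not pass. The log2 differences were 1.39 for Wt1 (SE 0.08, adjusted p = 5.51e-05) and 1.17 for Nr0b1 (SE 0.10, adjusted p = 0.000232). For Gata6 the log2 difference was −0.82 (SE 0.14, adjusted p = 0.00375). The GC Sema3E libraries had entered the choice of Kctd14, so its value here (1.42, SE 0.27) is a description, given without a test. As a fold of mean TPM, Wt1 was 3.18-fold, Kctd14 2.81-fold and Nr0b1 2.45-fold higher in OST, and Gata6 was at 0.563 times its level in GCs. In each of the 4 genes all 3 OST libraries lay on one side of all 3 GC libraries, where 34.6% of all genes were separate in this way and higher and 23.9% separate and lower.

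Thus Wt1 and Nr0b1 passed as higher in OST and Gata6 as lower, and Foxl2, Gata4 and Cyp19a1 did not pass. Of 15698 genes, 45.2% passed in either direction, 28.2% higher and 17.0% lower. A share of this size is near the background of 2 tissues that differ widely. Without globin and mitochondrial genes the split over all genes turned to 2996 higher and 6070 lower, from 4425 and 2667, and the median of all genes moved from 0.05 to −0.19. On that scale Wt1, Nr0b1 and Gata6 passed with the same signs (1.21, 0.94 and −1.10), and Kctd14 was at 1.15.

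Foxl2 (0.16, SE 0.11, adjusted p = 0.264) and Gata4 (0.17, SE 0.10, adjusted p = 0.197) had small differences, which turned to −0.11 and −0.09 without globin and mitochondrial genes. Cyp19a1 was at −0.68 (SE 0.24, adjusted p = 0.0577), with GC Sema3E replicate 3 (1.23 TPM) below OST Sema3E replicate 2 (1.40 TPM). It passed without GC Sema3E replicate 3 (−0.90, adjusted p = 0.0218), without OST Sema3E replicate 2 (−0.85, adjusted p = 0.0444) and without globin and mitochondrial genes (−0.94, adjusted p = 0.0309), all with less mRNA in OST.

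Markers of other cells moved with this comparison, and their part in the 4 differences was not tested. Between Sema3E GCs and Sema3E OST, all 6 stroma, all 6 smooth muscle and pericyte and all 6 endothelial markers were higher in OST, with summed levels of 24.9 to 53.5 against 885 to 1045 TPM, 11.1 to 17.0 against 622 to 702 TPM and 11.6 to 20.8 against 323 to 397 TPM. Of the 8 markers of ovarian surface epithelium, a layer that itself carries Wt1, 6 were tested and 6 were higher in OST (22.0 to 57.8 against 152 to 167 TPM, Muc16 under 1 TPM in every library). Of 7 oocyte markers tested, 4 were higher and 1 lower (293 to 318 against 233 to 378 TPM), and of 6 granulosa markers outside the 7 genes, 2 were higher and 3 lower. Of 6 theca and steroidogenic markers 5 were higher, of 6 leukocyte markers 3 were lower and of 5 red blood cell markers 5 were lower.

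Among IgG libraries the same comparison helped to choose Kctd14 and Nr0b1, so its values are a description. The log2 differences of OST from GCs were 3.52 for Kctd14 (SE 0.55), 2.31 for Wt1 (SE 0.37), 1.91 for Nr0b1 (SE 0.40), 0.83 for Foxl2 (SE 0.29), 0.59 for Gata4 (SE 0.23), −0.17 for Gata6 (SE 0.26) and −0.75 for Cyp19a1 (SE 0.23). All 3 OST libraries were above all 3 GC libraries for 5 of the 7 genes and below them for Cyp19a1, where 39.8% of 16627 genes were separate and higher and 4.97% separate and lower. Over all genes the median difference was 0.30, and 0.02 after scaling by median ratios, where the 5 positive genes stayed positive. Gata4 no longer had separate groups after that scaling, and the shares of separate genes above are of unscaled TPM. Of the genes passing an adjusted p of 0.05, 1387 were higher and 50 lower, and 746 and 160 after that scaling. Without OST IgG replicate 3 the differences were 2.88 for Kctd14, 1.87 for Wt1, 1.56 for Nr0b1, 0.71 for Foxl2, 0.59 for Gata4, −0.06 for Gata6 and −0.59 for Cyp19a1. Without GC IgG replicate 1 as well, Kctd14, Wt1 and Nr0b1 were at 2.78, 1.86 and 1.28, Foxl2 at 0.44 and Gata6 at −0.34.

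**Figure D2:**
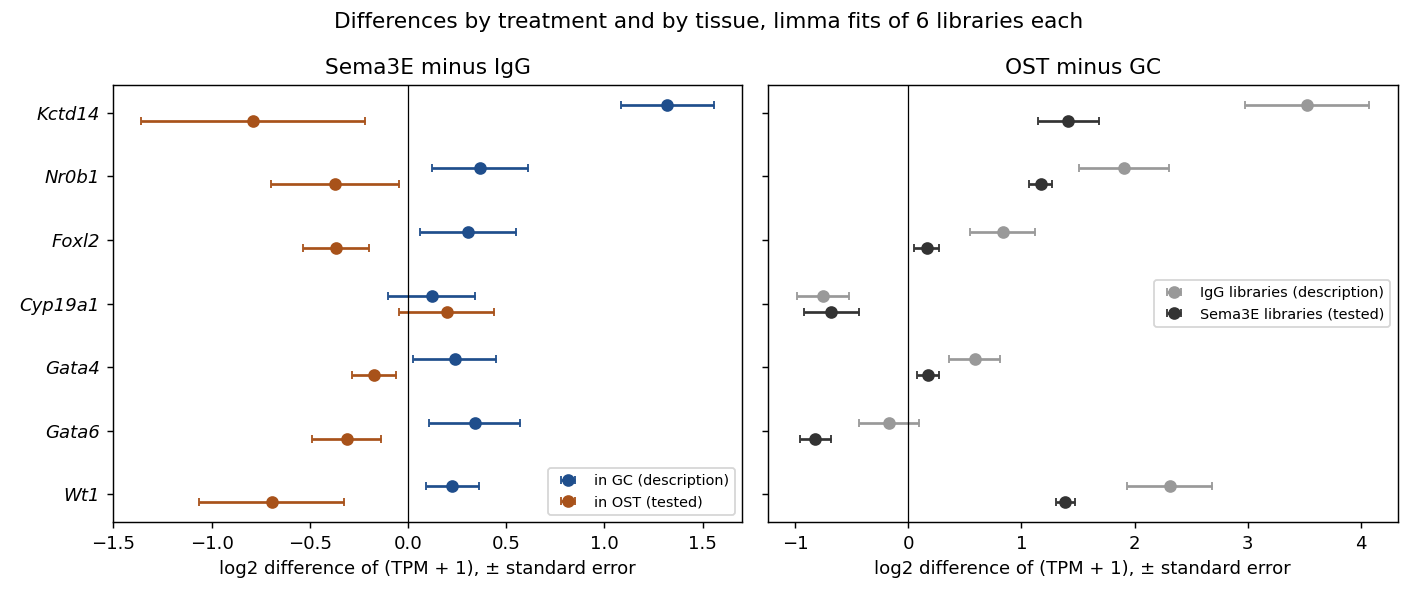
Log2 differences of (TPM + 1) with their standard errors for the 7 genes, Sema3E minus IgG on the left and OST minus GC on the right, each from a limma fit of 6 libraries. Kctd14 is at 1.32 in GCs and −0.79 in OST with treatment, and at 3.52 (IgG) and 1.42 (Sema3E) between tissues, and pairs of points in a panel share no library but points across panels do.

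Sema3E was compared with IgG in OST by the second tested comparison. The IgG libraries of OST had helped to choose Kctd14 and Nr0b1, so for these genes it is a description, given without a test. None of the other 5 genes passed, and 0 of 16273 genes (0%) passed in limma, although 2425 genes had an unadjusted p under 0.05. None of the 5 was among those 2425. The log2 differences were −0.79 for Kctd14 (SE 0.57), −0.69 for Wt1 (SE 0.37, adjusted p = 0.373), −0.37 for Nr0b1 (SE 0.33), −0.36 for Foxl2 (SE 0.17, adjusted p = 0.342), −0.31 for Gata6 (SE 0.18, adjusted p = 0.384), −0.17 for Gata4 (SE 0.11, adjusted p = 0.427) and 0.20 for Cyp19a1 (SE 0.24, adjusted p = 0.652). The median over the 7 was −0.36 and that over all genes −0.18, which scaling by median ratios moved to −0.02, with Gata4 then at 0.01.

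Much of this rested on OST IgG replicate 3. Without it, Kctd14 was at −0.14 (SE 0.28), Nr0b1 at −0.03 (SE 0.19), Wt1 at −0.25 (SE 0.10), Foxl2 at −0.24 (SE 0.12), Gata6 at −0.42 (SE 0.16), Gata4 at −0.18 (SE 0.11) and Cyp19a1 at 0.03 (SE 0.23), with adjusted p-values of 0.243 to 0.937 for the 5 tested, and 11 genes passed over the whole table, none of them a member. With that library kept, only Wt1 had separate groups on unscaled TPM, with all 3 Sema3E libraries below all 3 IgG libraries. Of all genes, 29.9% were separate and lower. After scaling by median ratios the Wt1 groups overlapped. Without OST IgG replicate 3, Gata6 was at 21.0, 30.4 and 23.2 TPM with Sema3E against 34.5 and 32.1 TPM with IgG. These Gata6 groups were separate on unscaled TPM but overlapped after scaling by median ratios, and the share over all genes was not computed there. Oocyte markers summed to 349 to 1115 TPM in IgG OST and 233 to 378 TPM in Sema3E OST, with 8 of 8 at a negative difference and none passing, and 6 of 6 granulosa markers outside the 7 genes were negative and none passed. Without OST IgG replicate 3, 6 of 7 oocyte markers tested and 6 of 6 granulosa markers were negative (medians −0.24 and −0.18, where all genes were at −0.16), again with none passing. Their part in these differences was not tested.

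In GCs the treatment comparison is a description, since Kctd14 was chosen with its values known. Kctd14 was at a log2 difference of 1.32 (SE 0.24), 2.62-fold by mean TPM. Nr0b1 followed at 0.37 (SE 0.24), with Gata6 at 0.34 (SE 0.23), Foxl2 at 0.31 (SE 0.25), Gata4 at 0.24 (SE 0.21), Wt1 at 0.23 (SE 0.14) and Cyp19a1 at 0.12 (SE 0.22). All 7 were positive, and for Kctd14 and Wt1 the 3 Sema3E libraries were above the 3 IgG libraries on unscaled TPM. Of 15128 genes, 8.99% were separate and higher and 0.0661% passed an adjusted p of 0.05. After scaling by median ratios the Wt1 groups overlapped. Without GC IgG replicate 1, Kctd14 was at 1.23 and Wt1 at 0.22, but Nr0b1, Foxl2, Gata4, Gata6 and Cyp19a1 were at 0.08, 0.04, 0.01, 0.06 and 0.06. Without GC Sema3E replicate 2, Cyp19a1 was at −0.02. Oocyte markers also stood higher with Sema3E (293 to 318 against 139 to 243 TPM, 6 of 6 tested with separate groups and none passing, and 6 of 6 positive without GC IgG replicate 1), and their part in these values was not tested.

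Ratios within a library do not depend on how libraries are scaled. Gata4 was at 2.87% to 4.18% of the Foxl2 level in all 12 libraries, although Foxl2 itself spanned a 3.11-fold range. Gata6, in contrast, was at 7.36% to 9.79% of Foxl2 in GCs and 2.93% to 4.96% in OST, without overlap. The ratio of Gata6 TPM to Gata4 TPM was therefore 1.93 to 2.51 in GCs and 0.949 to 1.37 in OST, under 1 in OST Sema3E replicate 1.

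Among Sema3E libraries, which were tested by an exact two-sided permutation test with 3 libraries against 3, log2 of Gata6 over Gata4 was 1.03 lower in OST (exact permutation p = 0.1, the smallest this design allows), while log2 of Gata4 over Foxl2 differed by 0.02 (exact permutation p = 0.7). Relative to Foxl2, the log2 difference of OST from GCs was 1.503 for Wt1, 1.12 for Nr0b1, −1.36 for Cyp19a1 and −1.01 for Gata6, each with exact permutation p = 0.1. That of Kctd14 was 1.29, given without a test. For 11 ratios formed in this comparison, no p could pass 0.05 in this design, before or after adjustment.

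**Figure D3:**
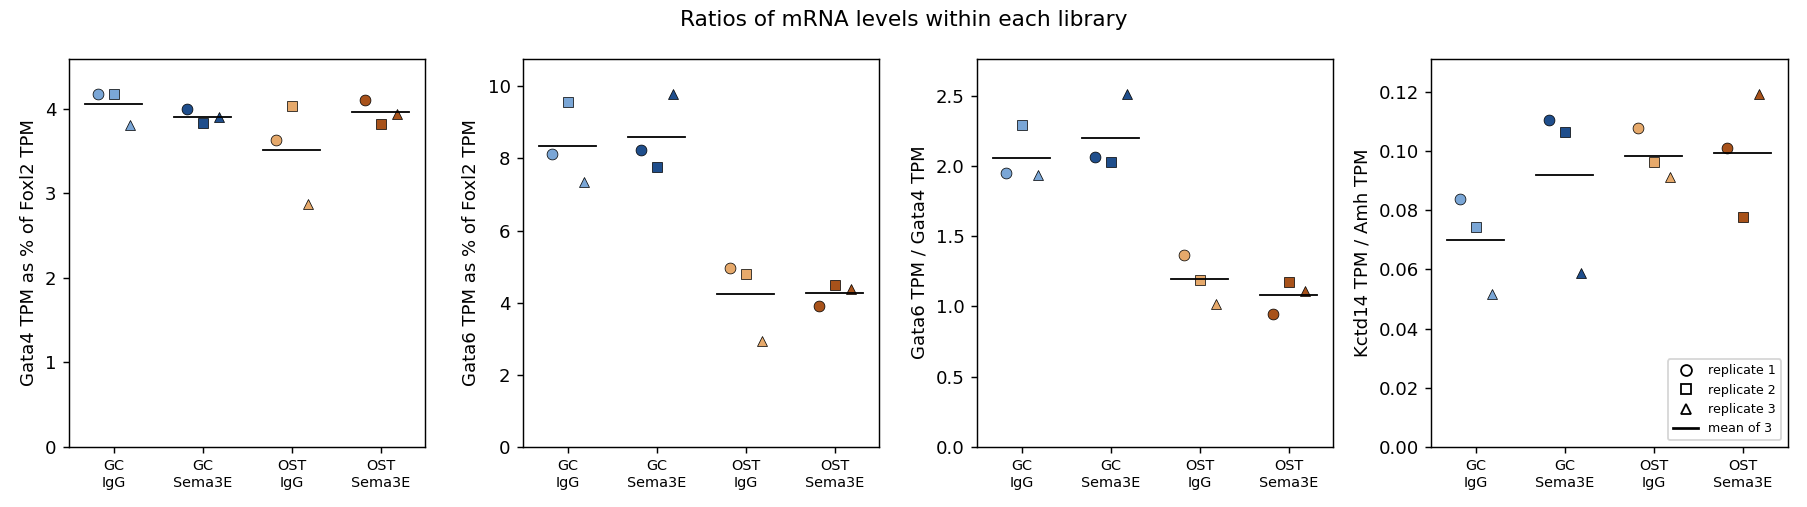
Ratios of TPM within each library, with 3 libraries per group and a bar at the mean of 3, on axes that start at 0. Gata4 stays at 2.87% to 4.18% of Foxl2 in both tissues, Gata6 over Foxl2 and Gata6 over Gata4 are higher in all 6 GC libraries than in all 6 OST libraries, and Kctd14 over Amh spans 0.0518 to 0.119.

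Of the growing follicle genes, Amh stood among the 5 genes most correlated with Kctd14. It encodes anti-Müllerian hormone, made by granulosa cells of small growing follicles. Amh was at 92.6, 98.0 and 247 TPM in IgG GCs, at 258, 242 and 320 TPM in Sema3E GCs, at 707, 722 and 3073 TPM in IgG OST and at 944, 799 and 401 TPM in Sema3E OST. Kctd14 over Amh was between 0.0518 and 0.119 in all 12 libraries, a 2.31-fold span, while Kctd14 spanned 38.4-fold and Amh 33.2-fold. Amh was taken up here for its correlation with Kctd14 over these same libraries, so a narrow span of the ratio follows from that choice. The ratio differed by a log2 of 0.15 between OST and GCs with Sema3E, given without a test.

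Over 12 libraries, the 5 genes whose log2(TPM + 1) was most correlated with that of Kctd14, among 8514 genes with a mean over 5 TPM, were Cyp2s1 (Pearson r = 0.99, 0.97 within the 6 GC and 0.99 within the 6 OST libraries), Hbegf (0.98, 0.87 and 0.99), Fkbp7 (0.98, 0.84 and 0.97), Ung (0.97, 0.93 and 0.94) and Amh (0.97, 0.85 and 0.98). CYP2S1 is a cytochrome P450, HBEGF a ligand of the EGF receptor, FKBP7 a peptidyl-prolyl isomerase and UNG a uracil-DNA glycosylase. Cyp2s1 was at 5.86 to 11.1 TPM in IgG GCs, 13.7 to 16.2 TPM in Sema3E GCs, 34.8 to 111 TPM in IgG OST and 22.7 to 40.05 TPM in Sema3E OST. These correlations are a description of unscaled TPM over libraries that share a tissue and, for 1 OST library, an extreme value.

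The genes most like Nr0b1 were Pa2g4, Tsr2, Cbr1, Ptrh2 and Prpf19 (r = 0.99 each), and those most like Wt1 were Itih5, Eif3e, Gas6, Mlf1 and Smtnl2 (r = 0.99 each), most of them with a lower r within GCs (Eif3e at 0.60 and Mlf1 at 0.67). Foxl2 was most like Wdr6 (0.98), Cep131, Chpf, Zbtb12 and Uri1 (0.97 each), Gata4 most like Uba2 (0.96), Tmem132a, Zdhhc8, Cad and Wdr6, and Gata6 most like Cipc (0.96), Kdm4b, Slc45a4, Zfp410 and Tom1l1. Cyp19a1 was most like Inhba (0.93, 0.87 within GCs and 0.82 within OST), which encodes the activin and inhibin βA subunit, then Crabp2, Hap1, Enc1 and Ammecr1, for which r within GCs was 0.35 to 0.57.

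Among pairs of the 7 genes, Kctd14, Nr0b1 and Wt1 were correlated with each other (r = 0.94 for Kctd14 with Nr0b1, 0.95 for Kctd14 with Wt1 and 0.96 for Nr0b1 with Wt1 over 12 libraries), where the difference between tissues enters. Within GCs r was 0.65, 0.89 and 0.59 for these pairs, and within OST 0.87, 0.93 and 0.92. Foxl2 and Gata4 were also (0.95 over 12 libraries, 0.995 within GCs and 0.76 within OST), and for Foxl2 and Gata6 r was 0.90 within GCs and 0.03 over 12 libraries. For Kctd14 and Cyp19a1 r was −0.76 within the 6 OST libraries and 0.54 within the 6 GC libraries.

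Other genes of the granulosa fate split between tissues. Of 16 ovarian fate factors tested in OST against GCs with Sema3E, 7 were higher in OST and 6 lower, with a median of −0.05 beside 0.05 over all genes. Wnt4, a ligand of the ovarian pathway, was at 94.2 to 115 TPM in OST and 9.76 to 19.9 TPM in GCs (log2 2.85, SE 0.23, adjusted p = 0.000191), and Nr2f2 (1.78, adjusted p = 3.27e-05) and Lhx9 (1.43, adjusted p = 0.000257) were also higher. Nr2f2 marks theca and interstitial cells and Lhx9 the gonadal primordium and surface epithelium.

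Rspo1 (0.66), Emx2 (0.57), Bmp2 (0.57) and Ctnnb1 (0.24, turning negative without globin and mitochondrial genes) completed the 7. The 6 lower were Fst, the activin-binding follistatin gene (−1.54), Runx1, which works beside FOXL2 in fetal granulosa cells (−1.505), Cited2 (−1.01), Irx5 (−0.56), the oestrogen receptor gene Esr2 (−0.56) and Cbx2 (−0.45). Among IgG libraries 4 of 17 passed, all higher in OST (Nr2f2, Lhx9, Bmp2 and Rspo1), where 8.64% of all genes passed, and the first 3 also passed without any single library while Rspo1 passed in 2 of 6 such fits. Without OST IgG replicate 3, 6 of 16 were higher and 2 lower.

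FOXL2 keeps the testis programme low, and 11 genes of the testis fate were measured. The highest was Aard, at 31.2 to 57.9 TPM in GCs and 37.2 to 71.5 TPM in OST, followed by Dhh, a hedgehog ligand gene that granulosa cells also express, at 9.96 to 18.5 and 18.4 to 49.2 TPM. Sox9, the testis determinant, was at 1.35 to 3.33 TPM in GCs and 7.19 to 10.6 TPM in OST, and passed as higher in OST with Sema3E (1.58, adjusted p = 0.00142) and with IgG (1.47, adjusted p = 0.0232, and 0.0309 to 0.0661 without single libraries). Cldn11, a Sertoli cell junction gene, was higher as well (1.72 and 1.64). Of 8 tested with Sema3E, 3 were higher (Ptgds at 2.88 the third) and 2 lower (Gdnf at −1.80 and Sox8 at −0.85), with a median of 0.46. Neither treatment comparison called any of them.

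Of 18 genes of growing follicle granulosa cells, 5 were higher and 9 lower in OST with Sema3E, with a median of −0.28. The 5 were Gatm (2.00), Amh (1.30), Igfbp5 (1.08), Igf1 (0.86) and Amhr2 (0.60), and the 9 included the subunit genes Inhba (−1.89), Inhbb (−1.87) and Inha (−0.69), the FSH receptor gene Fshr (−0.90) and Hsd17b1 (−0.96), which makes oestradiol. Among IgG libraries Gatm, Amh, Igf1 and Igfbp5 were higher and Inhba lower (−1.73, adjusted p = 0.0128). Without single libraries these calls passed in 5 (Gatm), 4 (Igf1 and Inhba) and 1 (Amh and Igfbp5) of 6 fits, the adjusted p of Amh being 0.0270 without OST IgG replicate 3 and 0.0578 to 0.137 without each of the others.

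With treatment, none of the 18 passed in either tissue. In GCs 16 of the 18 were positive with Sema3E (median 0.33, where all genes were at 0.06), Inhbb having the smallest unadjusted p (0.73, adjusted p = 0.563). In OST 17 of 18 were negative (median −0.51, where all genes were at −0.18), Serpine2 having the smallest unadjusted p (−0.49, adjusted p = 0.332). The list held its sign counts after scaling by median ratios, and OST IgG replicate 3 had the highest OST level for 14 of the 18. Without it, 18 of 18 were negative in OST with a median of −0.21, near that of all genes (−0.16), and without GC IgG replicate 1, 14 of 18 were positive in GCs (median 0.27, where all genes were at −0.02).

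Of 20 ovulation and luteinization genes, 12 were lower and 5 higher in OST with Sema3E (median −0.99). Ptx3, a matrix protein gene of the expanding cumulus, was at 366 to 525 TPM in GCs and 69.1 to 105 TPM in OST (−2.28, adjusted p = 0.000239), and Sult1e1 (−1.95) and Adamts1 (−1.12) were among the lower. Cyp11a1, which starts steroid synthesis, was higher (1.46, adjusted p = 8.72e-05). With IgG all 20 were negative and none passed (median −1.55, where all genes were at 0.30). Without OST IgG replicate 3, 15 of the 20 were negative and 6 passed as lower (median −0.72, where all genes were at 0.26).

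With Sema3E against IgG in OST, 19 of 20 ovulation and luteinization genes were positive (median 1.0) and none passed, the smallest unadjusted p being that of Areg (1.61, adjusted p = 0.342), the gene of the EGF-like factor amphiregulin. OST IgG replicate 3 was the lowest library in 20 of the 20, and without it 8 were positive and 12 negative (median −0.07, where all genes were at −0.16), with none passing. In GCs 8 of 20 were positive (median −0.04), and 6 of 20 without GC IgG replicate 1 (median −0.10).

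**Figure D4:**
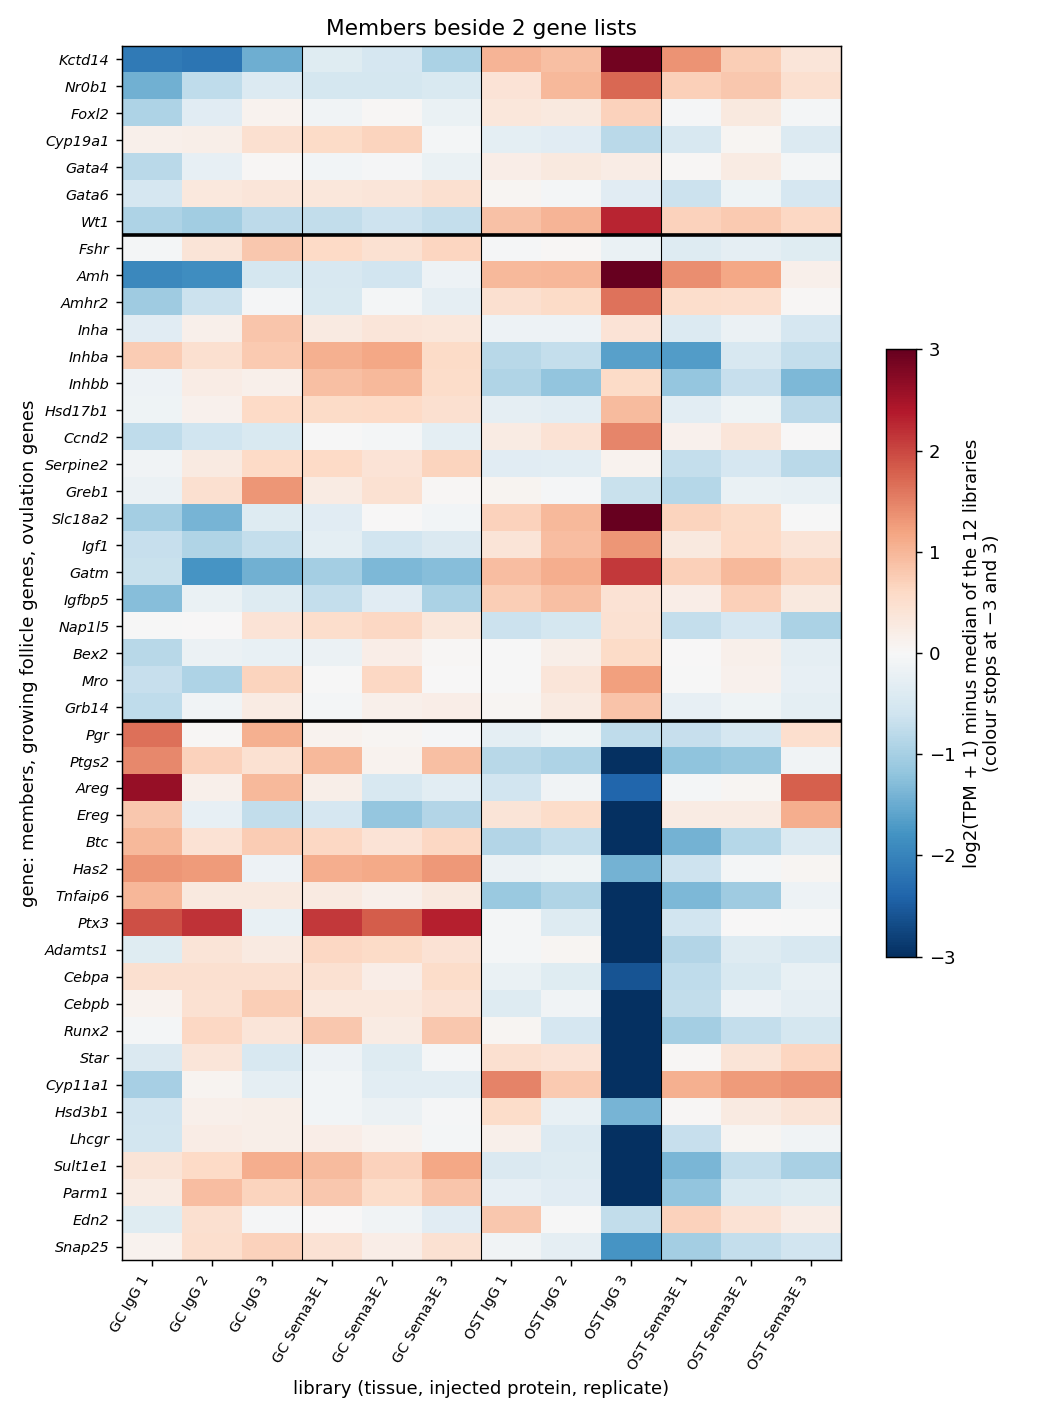
Each row is a gene and each column a library, coloured by log2(TPM + 1) minus the gene's median over the 12 libraries, with the 7 genes on top, 18 growing follicle genes in the middle and 20 ovulation and luteinization genes below. OST IgG replicate 3 is dark red for Kctd14, Wt1 and Amh and is the lowest of the 12 libraries for all 20 ovulation and luteinization genes.

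Relatives of the 7 genes were compared between OST and GCs with Sema3E. Of 16 other KCTD genes tested, 5 were higher in OST and 1 lower (Kctd12, −0.70), with a median of 0.06, as over all genes (0.05). Kctd15 had the largest difference of them (1.06, SE 0.08, adjusted p = 0.000161), at 15.4 to 16.7 TPM in OST and 6.62 to 7.81 TPM in GCs, less than the 1.42 of Kctd14. Kctd17 (0.78), Kctd12b (0.67), Kctd2 (0.41) and Kctd10 (0.41) were the others. In GCs none of the 16 tested had separate treatment groups, where 8.99% of all genes were separate and higher. With 16 genes, none is near that share, and Kctd14 was itself chosen for its difference there.

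Of 8 relatives of the GATA, NR0B, forkhead and WT1-interacting genes tested, 4 were higher and 2 lower in OST. Gata2 went the opposite way from Gata6 (2.55, SE 0.11, adjusted p = 1.54e-05), at 7.28 to 8.41 TPM in OST and 0.417 to 0.674 TPM in GCs. It is a GATA factor of endothelial and blood cells. Nr0b2 (SHP), the closest relative of Nr0b1, was higher as was Nr0b1 (1.21, adjusted p = 0.00346), with Foxl1 at 1.30 and Wtip at 0.52, and Foxo3 (−0.58) and Foxo1 (−0.44) were lower. No gene of either list passed in a treatment comparison.

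Some of the 7 genes share ground with a neighbour on the other strand, and the strand setting of the counting was not found in any source, so reads of the pair cannot be told apart where they overlap. Foxl2os overlaps Foxl2 by 12 bases and Gata6os overlaps Gata6 by 504 bases, while Wt1os ends 19 bases short of Wt1. Gata6 lies at chr18:11052064-11085635 on the plus strand. Foxl2os was at 18.2% to 22.8% of the Foxl2 level in GCs and 10.8% to 16.2% in OST, and it was lower in OST with Sema3E (−0.63, SE 0.17, adjusted p = 0.0243) where Foxl2 was at 0.16. Gata6os was at 3.36 to 3.80 TPM in Sema3E GCs and 0.815 to 1.60 TPM in Sema3E OST (−1.14, SE 0.16, adjusted p = 0.00199), in the direction of Gata6. Wt1os was under 1 TPM in every library.

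Ndufc2, a respiratory chain gene that starts 5′ of Kctd14 on the same strand with 43521 bases between them, was also higher in OST with Sema3E (1.01, SE 0.07, adjusted p = 7.67e-05), at 48.7 to 51.0 against 22.9 to 24.998 TPM. With treatment in GCs it was at −0.02 (SE 0.14, adjusted p = 0.999), where Kctd14 was at 1.32.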

How the data were processed

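Reads had been aligned by the authors to GRCm38 (mm10) with HISAT2 (version 2.0.5) and counted by featureCounts (version 1.5.0-p3). A program listed as edgeR (version 1.3.3) also appears in the submitters' processing notes. The authors deposited TPM, so neither counting intervals nor count models were used. Positions are those of GENCODE M21, matched by identifier, because the table's own coordinates are not those of GRCm38. limma (version 3.58.1, R 4.3.3) was fitted with trend and robust estimation to log2(TPM + 1) of the 6 libraries of each comparison, over all genes above 1 TPM in any of them, with Benjamini-Hochberg adjustment. The pseudocount makes the fold of low genes, such as Cyp19a1, too small. Each group of 3 libraries enters more than one comparison. The 7 genes, the lists and the rule for naming genes were chosen with earlier results of these data known. No test is therefore given for the 7 in the comparisons that chose Kctd14 and Nr0b1, nor for these 2 genes in OST treatment, which uses the same IgG libraries. Nor is one given for Kctd14 between tissues with Sema3E, which uses the same GC Sema3E libraries. Named genes are, per list and comparison, any with an adjusted p under 0.05 and up to 4 with the smallest p, of which a selection is given, and for each of the 7 genes the 5 most correlated genes with a mean over 5 TPM, predicted genes and pseudogenes left out. Copies were sought with blastn (version 2.17.0). In simulated libraries, 100 genes were shifted by 1 and another 100 by 2 on the log2 scale. Of these 69% and 91% were called for OST against GCs with Sema3E (15698 genes, 7 unchanged genes called) and 36% and 75% for treatment in OST (16273 genes, 5 unchanged genes called). The simulated noise was drawn for each gene independently. It therefore holds no library in which many genes shift together, as in OST IgG replicate 3, and the shares called do not cover that case. No mouse is given for a replicate number, and the deviations of same-numbered libraries correlated at −0.18 to 0.34, so numbers were not taken as pairs. Alternatives were another pseudocount (0.1), no filter, median-ratio scaling, removal of globin and mitochondrial genes, all 12 libraries in one fit, limma without trend or robust estimation, the replicate block and leaving out single libraries. Leaving out both outlying IgG libraries was chosen after seeing the data. Summaries were computed in pandas (version 2.3.3).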

Additional observations from a re-analysis of the deposited data

Results flagged for a closer look

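For Wt1 the treatment groups were separate on unscaled TPM in both tissues and on opposite sides. Every Sema3E library lay above every IgG library in GCs and below every one in OST. After scaling by median ratios the groups overlapped in both tissues. Of all genes, 8.99% were separate and higher in GCs and 29.9% separate and lower in OST, and Wt1 did not pass in OST (limma, adjusted p = 0.373). The Sema3E mean was 1.24 times the IgG mean in GCs and 0.534 times the IgG mean in OST, the latter 0.825 times without OST IgG replicate 3. The difference between the tissues was not tested, and the share of genes separate on opposite sides in both was not computed.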

How the results depend on the processing

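Of 455 alternative values, 57 were counts over the 7 genes, and these stayed equal or close to the main count, not all equal. Of the values of single genes, 385 kept direction and side of the threshold or, where untested, moved by less than the spread between replicates. Gata4 turned to 0.012 for treatment in OST after scaling by median ratios, and between tissues with Sema3E Foxl2 and Gata4 turned to −0.11 and −0.092 without globin and mitochondrial genes, none of them past the threshold. None of the 5 genes tested passed in OST treatment under any alternative. Between tissues with Sema3E, Wt1, Nr0b1 and Gata6 passed without each single library. Foxl2 and Gata4 passed in none of these fits and Cyp19a1 in some. Without single libraries 6 to 7 of the 7 were positive with treatment in GCs (Cyp19a1 turned to −0.02 without GC Sema3E replicate 2), and 5 to 5 between tissues with IgG. With the replicate block, Cyp19a1 passed between tissues with Sema3E (−0.68, adjusted p = 0.0243) and no other call of the 7 changed, while over all genes the block called 245 in GCs, where 10 passed without it.
Cyp19a1 between tissues with IgG was −1.37 with a pseudocount of 0.1 and −1.02 without globin and mitochondrial genes, and Gata4 was 0.28 by median ratios. Without both outlying IgG libraries Nr0b1 was 1.28 and Foxl2 0.44 there. The cause of these changes was not tested. Over all genes, the calls between tissues with IgG were 1437, against 906 by median ratios, 893 without globin and mitochondrial genes, 5225 with all 12 libraries and 501 to 1905 without single libraries, and 3127 without both outlying ones, and in OST treatment 0, against 11 without OST IgG replicate 3. With Sema3E they were 7092, against 4089 with all 12 libraries. In GCs all 12 libraries in one fit called 0 genes, with 468 at an unadjusted p under 0.05, and 6 to 25 were called without single libraries. As depth is unknown, low levels such as those of Cyp19a1 have no counting error attached.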
